A study of Mus musculus with 12 samples.

Results

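The myelin protein genes are 9 genes chosen by symbol: Mbp, Mobp, Mag, Mog, Cnp, Cldn11, Mal, Opalin and Ermn. Each was read from 1 of the 41345 transcript clusters of the Mouse Gene 2.0 ST array, the only cluster that carries the symbol alone. Acute slices of the hippocampus came from mice aged 8 to 11 weeks, by the labels 3 control and 3 Ptpn11D61Y animals, and 12 arrays formed 4 groups of 3. Ptpn11D61Y animals carried the Ptpn11floxedD61Y/WT allele, which encodes an overactive form of the phosphatase SHP2, and the Emx1IREScre allele. Cre is made from this allele in cells with an active Emx1 gene, which the paper gives as forebrain excitatory neurons and astrocytes. Whether oligodendrocytes carried the recombined allele was not tested. The sources differ on the control genotype. The labels give the same floxed allele without Emx1IREScre, and the paper gives wild-type Ptpn11 with it. Slices in the basal state (B) received the vehicle DMSO for 10 min. Stimulated slices (S) received 2.5 mM 4AP, which blocks potassium channels, and 50 µM bicuculline, which blocks GABAA receptors, for the same time. All slices then stayed in ACSF for 3 h before RNA was taken. By the labels, a replicate number within a genotype stands for 1 animal that gave both its basal and its stimulated slices, several to a chamber. Correlations between the arrays, given with the processing, did not show a shared animal in either genotype.

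Myelin of the brain is made by oligodendrocytes, which wrap axons in many layers of membrane. Mbp holds the inner faces of the layers together, and Mobp is a small basic protein of the same compact myelin. Mag sits on the membrane next to the axon, Mog on the outermost layer, and Cnp is an enzyme of the cytoplasm-filled parts of the sheath. Cldn11 forms the tight junctions between the layers, Mal takes part in the transport of membrane to the sheath, Opalin is a glycoprotein of the myelin membrane and Ermn is a late protein that binds actin. In the hippocampus myelinated axons run mainly in the alveus, the fimbria and the perforant path. In bulk RNA more oligodendrocytes and more RNA per oligodendrocyte cannot be told apart.

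All 9 genes had a higher mean in Ptpn11D61Y than in control slices, in the basal state and after stimulation. Mag passed the filter in both states and Mog in the basal state alone. The other 7 genes passed it in neither. The filter was that of the study's methods, a change of 1.5-fold or more together with p below 0.05 before adjustment. After Benjamini-Hochberg adjustment over all 41345 clusters in limma, none was below 0.05 in any comparison, and the smallest adjusted p was 0.894 in Ptpn11D61Y B vs. control B and 0.407 in Ptpn11D61Y S vs. control S. At an unadjusted p under 0.05 there were 610 and 810 clusters in these comparisons. With 3 arrays against 3, the smallest exact two-sided permutation p is 0.1.

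Levels are given as log2 of the array signal. Signals of different clusters depend on their probes, so the percentiles and the share of bright clusters describe signal on the array and not the order of transcript levels. Over the 12 arrays the mean signals of the 9 genes lay between the 80.3rd and the 99.2nd percentile of all clusters. Bright clusters are the 8163 clusters with a mean signal of at least 7.31, that of Opalin. The excitatory neuron markers Camk2a and Slc17a7 were detected, with mean log2 signals of 11.97 and 11.21. Ptpn11 itself lay between 8.32 and 8.88 and differed by -0.09 ± 0.20 (log2 fold change ± standard error) in B and by -0.05 ± 0.20 in S. Whether the probes of its cluster tell the D61Y codon from the wild-type one was not tested. Arrays of replicate 1 stood apart in all 4 groups, with correlations across clusters of 0.788 to 0.928 with the other replicates, against 0.947 to 0.982 among replicates 2 and 3.

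Mag and Mog, the genes that passed the filter, are shown first with the sequence before their start sites, together with Cnp, which shares a match with Mag, and Mobp, which has the most matches. The sequences are the 250 bases upstream of the start site in RefSeq, build GRCm38.p6, 5′ to 3′ on the strand of the gene. They are chr7:30914864-30915113 on the minus strand for Mag (the first of its 3 windows), chr17:37023399-37023648 on the minus strand for Mog, chr11:100574689-100574938 on the plus strand for Cnp and chr9:120149492-120149741 on the plus strand for Mobp. Capitals mark the letters ACAAAG, a core bound by SOX factors such as Sox10, and CTGGCAC or CTGGTAC, the core of the motif of the myelin regulator Myrf, each on either strand.
Mag: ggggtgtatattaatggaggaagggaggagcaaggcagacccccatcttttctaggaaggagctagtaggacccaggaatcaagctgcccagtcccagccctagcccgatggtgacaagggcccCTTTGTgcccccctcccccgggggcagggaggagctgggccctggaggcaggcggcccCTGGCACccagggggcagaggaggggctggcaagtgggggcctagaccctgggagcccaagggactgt
Mog: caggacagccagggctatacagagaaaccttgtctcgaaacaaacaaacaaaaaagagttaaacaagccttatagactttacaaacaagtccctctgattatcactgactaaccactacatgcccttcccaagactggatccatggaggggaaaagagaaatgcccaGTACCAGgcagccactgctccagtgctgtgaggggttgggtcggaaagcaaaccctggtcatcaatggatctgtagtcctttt
Cnp: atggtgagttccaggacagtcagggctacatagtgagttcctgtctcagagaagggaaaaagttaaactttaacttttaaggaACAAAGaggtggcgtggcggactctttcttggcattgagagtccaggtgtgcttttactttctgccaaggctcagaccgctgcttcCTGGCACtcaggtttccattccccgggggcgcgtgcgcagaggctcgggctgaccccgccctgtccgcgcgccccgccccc
Mobp: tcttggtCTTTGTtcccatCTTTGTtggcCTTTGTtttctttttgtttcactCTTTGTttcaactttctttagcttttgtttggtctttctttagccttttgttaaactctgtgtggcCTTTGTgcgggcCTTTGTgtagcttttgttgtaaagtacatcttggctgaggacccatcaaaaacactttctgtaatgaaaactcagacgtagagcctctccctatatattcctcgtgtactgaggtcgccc
The Myrf core lay 68 bases before the start site in Mag, 83 in Mog and 81 in Cnp. It was found in a window of 3 of the 8 genes with an entry, against 6.79% of all 27025 genes and 5.93% of their 32851 windows of the same length. The SOX core was found for 4 of the 8 genes, Mobp, Mag, Cnp and Opalin, against 18.6% of all genes and 16.5% of all windows, and the Mobp window held 6 copies of it. Of the 3 Mag windows, the second overlaps the first and holds the same 2 matches, and the third holds none. A match is a description of the letters and not a measured binding site. Mbp had no entry in the table and is named only.

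Mag was the 1 gene of the 9 that was higher past the filter in both states. In the basal state its log2 signals were 8.39, 8.67 and 8.15 on control replicates 1 to 3, and 8.89, 9.36 and 8.74 on Ptpn11D61Y replicates 1 to 3. After stimulation they were 8.23, 8.34 and 8.41 in control and 8.72, 9.01 and 9.20 in Ptpn11D61Y. Every Ptpn11D61Y array therefore lay above every control array, across both states, and the highest control array, basal replicate 2, lay just below the lowest Ptpn11D61Y array. The log2 fold change was 0.60 ± 0.23 in B (1.51-fold, unadjusted p = 0.0237, adjusted p = 1 in limma) and 0.65 ± 0.23 in S (1.57-fold, unadjusted p = 0.0156, adjusted p = 1 in limma). Its basal fold lay close to the threshold of 1.5. Of all clusters, 0.297% had Ptpn11D61Y above control without overlap in both states, and 0.11% of the bright clusters. Mag missed the filter in B when either Ptpn11D61Y B replicate 2 (0.42) or control B replicate 3 (0.47) was left out, and in S without Ptpn11D61Y S replicate 3 (0.54).

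Mog followed Mag in the basal state and less clearly after stimulation. Its basal log2 signals were 7.28, 7.90 and 7.49 in control and 7.97, 8.57 and 8.08 in Ptpn11D61Y. The stimulated arrays gave 7.54, 7.81 and 7.81 in control and 7.66, 8.22 and 8.42 in Ptpn11D61Y. The groups did not overlap in B, while in S Ptpn11D61Y replicate 1 lay within the control arrays. The log2 fold change was 0.65 ± 0.26 in B (1.57-fold, unadjusted p = 0.0269, adjusted p = 1 in limma) and 0.38 ± 0.26 in S (unadjusted p = 0.162 in limma), and the difference between these, tested as an interaction, was -0.26 ± 0.36 (unadjusted p = 0.478 in limma). Mog missed the filter in B without Ptpn11D61Y B replicate 2 (0.46), control B replicate 1 (0.51) or control B replicate 3 (0.61, unadjusted p = 0.0664 in limma). Without Ptpn11D61Y S replicate 1 it passed the filter in S as well, at 0.60, in a fit in which 0.774% of all clusters passed as higher.

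**Figure D1:**
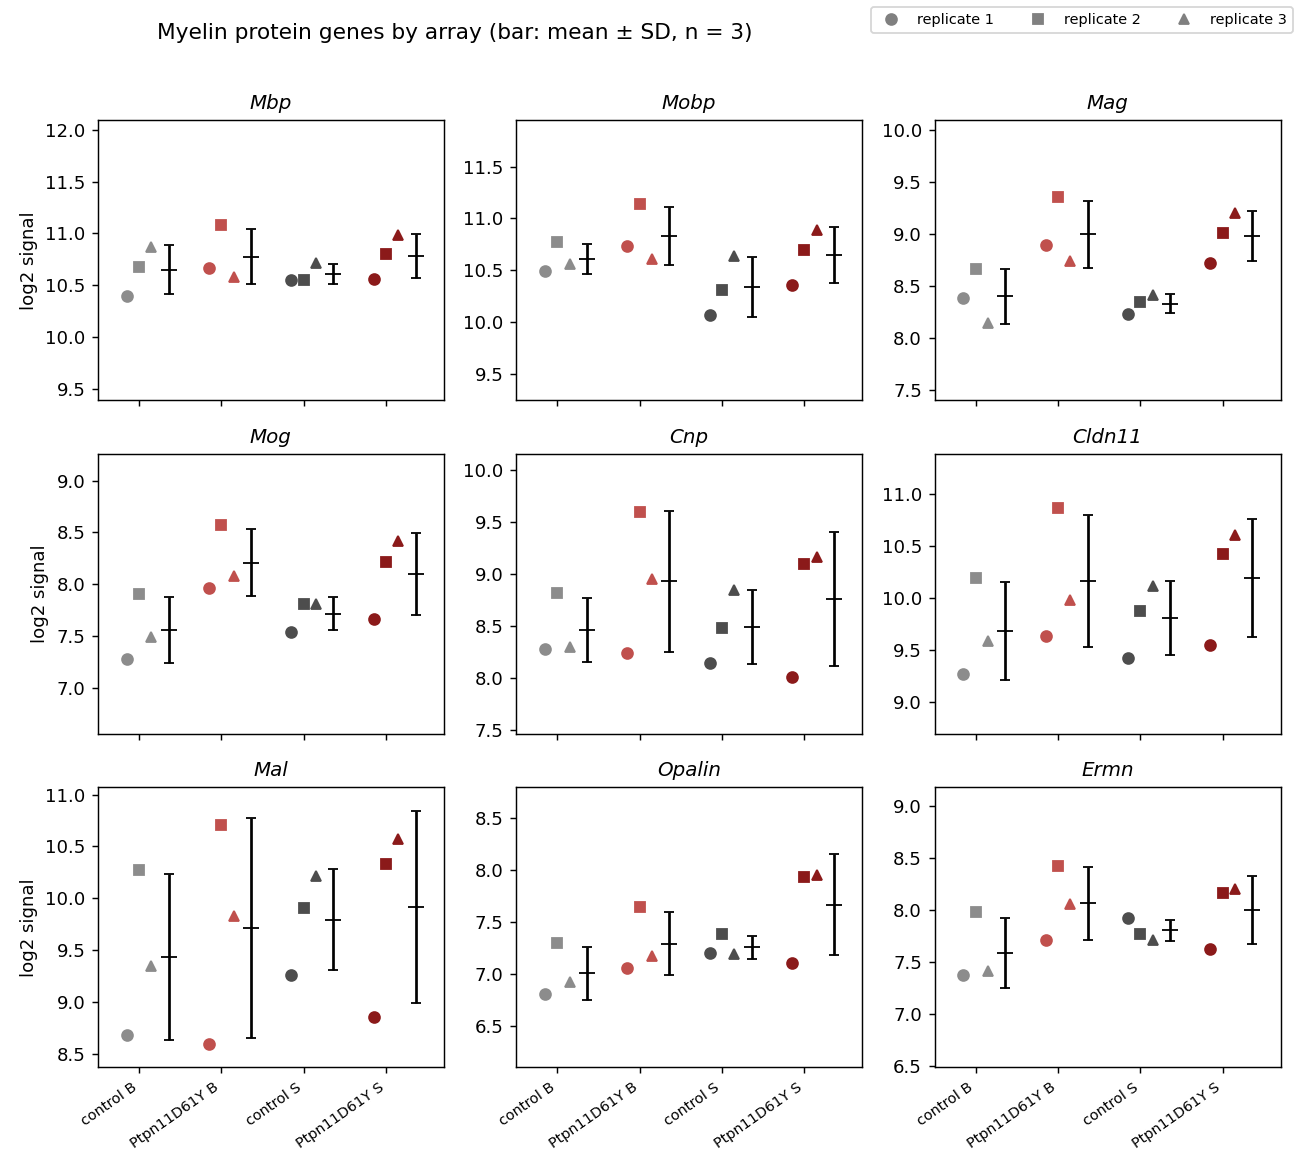
Log2 signal of the 9 myelin protein genes on each array, by group on the x axis, with circles, squares and triangles for replicates 1, 2 and 3 and black bars for the mean ± SD (n = 3). Each panel spans the same number of log2 units; Mag is separated by genotype on all arrays, and replicate 1 is the lowest array of most groups.

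Cnp and Cldn11 had basal fold changes of like size but more spread. Cnp read 8.28, 8.82 and 8.30 in control B and 8.24, 9.60 and 8.95 in Ptpn11D61Y B, then 8.14, 8.49 and 8.85 in control S and 8.01, 9.10 and 9.17 in Ptpn11D61Y S. Its replicate 1 arrays lay together in both genotypes, and the Ptpn11D61Y arrays of replicates 2 and 3 lay above every control array. The log2 fold change was 0.47 ± 0.39 in B and 0.27 ± 0.39 in S (unadjusted p = 0.253 and 0.502 in limma). With replicates 2 and 3 alone it was 0.72 ± 0.26 in B and passed the filter, as did 1.59% of all clusters as higher and 2.6% as lower in that fit. Cldn11 read 9.27, 10.20 and 9.59 in control B and 9.64, 10.87 and 9.98 in Ptpn11D61Y B. In S it read 9.43, 9.88 and 10.12 in control and 9.55, 10.43 and 10.61 in Ptpn11D61Y. All of its groups overlapped, with log2 fold changes of 0.48 ± 0.41 in B and 0.38 ± 0.41 in S (unadjusted p = 0.264 and 0.364 in limma).

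Mbp and Mobp, the proteins of compact myelin, had genotype differences smaller than their errors or close to them. Mbp read 10.40, 10.67 and 10.87 in control B, 10.66, 11.08 and 10.58 in Ptpn11D61Y B, 10.55, 10.56 and 10.72 in control S and 10.56, 10.80 and 10.99 in Ptpn11D61Y S. Mobp read 10.49, 10.78 and 10.56, then 10.73, 11.14 and 10.61, then 10.07, 10.31 and 10.64, and 10.36, 10.69 and 10.89 in the same order of groups. Both overlapped between genotypes in both states. The log2 fold change of Mbp was 0.13 ± 0.29 in B and 0.18 ± 0.29 in S, with 95% intervals of -0.51 to 0.77 and -0.47 to 0.82. That of Mobp was 0.22 ± 0.30 in B and 0.31 ± 0.30 in S, with intervals of -0.44 to 0.88 and -0.35 to 0.97. These intervals hold the fold changes of Mag as well as 0.

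Mal had the largest spread between arrays of a group. It read 8.69, 10.28 and 9.35 in control B, 8.60, 10.71 and 9.83 in Ptpn11D61Y B, 9.26, 9.90 and 10.22 in control S and 8.86, 10.33 and 10.57 in Ptpn11D61Y S. The SD within a group was 0.49 to 1.06, against 0.09 to 0.32 for Mag. Its log2 fold change was 0.27 ± 0.60 in B and 0.13 ± 0.60 in S (unadjusted p = 0.658 and 0.837 in limma), and the second turned to -0.026 with the arrays centred on their median.

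Opalin and Ermn, markers of late oligodendrocytes, differed in which state had the larger genotype difference. Opalin read 6.80, 7.30 and 6.92 in control B and 7.06, 7.64 and 7.18 in Ptpn11D61Y B, and 7.20, 7.39 and 7.19 in control S and 7.10, 7.94 and 7.96 in Ptpn11D61Y S. In S its replicates 2 and 3 of Ptpn11D61Y lay above all other arrays and replicate 1 below all control S arrays. Its log2 fold change was 0.29 ± 0.26 in B and 0.41 ± 0.26 in S (unadjusted p = 0.291 and 0.145 in limma), and 0.69 in S, past the filter, without Ptpn11D61Y S replicate 1. Ermn read 7.37, 7.98 and 7.42 in control B and 7.72, 8.42 and 8.06 in Ptpn11D61Y B, and 7.92, 7.77 and 7.72 in control S and 7.63, 8.17 and 8.21 in Ptpn11D61Y S. Its groups overlapped in both states. The log2 fold change was 0.48 ± 0.25 in B and 0.20 ± 0.25 in S (unadjusted p = 0.0795 and 0.446 in limma). Ermn passed the filter in B when Ptpn11D61Y B replicate 1 (0.65) or control B replicate 2 (0.67) was left out, with 0.972% and 0.97% of all clusters higher past it. The interaction was 0.12 ± 0.37 for Opalin and -0.28 ± 0.35 for Ermn, so neither difference between the states was larger than its error.

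Read as a group in Ptpn11D61Y B vs. control B, 9 of 9 genes had a log2 fold change above 0, against 50.1% of all clusters and 42.5% of the bright clusters. Their median was 0.47, beside 0.00 over all clusters and -0.03 over the bright ones. Of the 9 genes, 2 passed the filter as higher and none as lower, where 0.759% of all clusters and 0.159% of the bright ones passed as higher and 0.542% of all clusters as lower. The same 2, Mag and Mog, did not overlap between the groups, as did 2.48% of all clusters and 0.735% of the bright ones. With the arrays centred on their median neither Mag (0.58) nor Mog (0.63) passed in B, nor Mag (0.50) in S, and with the methods' test of the 6 arrays none of the 9 passed in B. The genes share cells and arrays and are not independent of each other. They were chosen with earlier results of these data known, so the shares beside them are a description and not a test.

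In Ptpn11D61Y S vs. control S, 9 of 9 genes were again above 0, against 58.6% of all clusters and 29.5% of the bright ones. The median was 0.31, beside 0.06 over all clusters and -0.08 over the bright ones. Mag alone passed the filter, where 1.43% of all clusters and 0.159% of the bright ones passed as higher and 0.406% of all clusters as lower. Mag was also the 1 gene of the 9 without overlap, a share of 4.76% over all clusters and 0.907% over the bright ones. For 8 of the 9 genes both Ptpn11D61Y group means lay above both control group means, as for 18.4% of all clusters and 9.87% of the bright ones. The exception was Mal, whose control S mean of 9.79 lay above its Ptpn11D61Y B mean of 9.71. Between the states the means of Mag differed by -0.018 in Ptpn11D61Y and by -0.070 in control (S minus B), less than the SD of 0.09 to 0.32 within a group. With replicates 2 and 3 alone the median was 0.53 in B and 0.47 in S, with all 9 genes above 0 in each, beside medians over the bright clusters of -0.08 and 0.01.

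**Figure D2:**
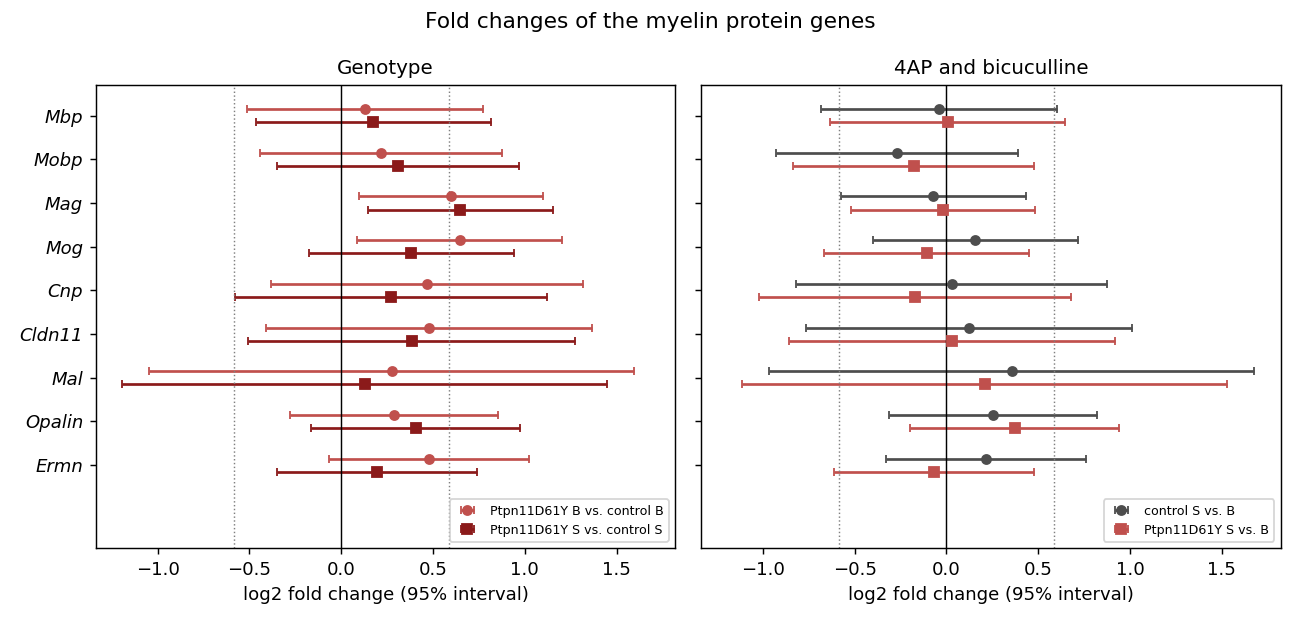
Log2 fold change of each myelin protein gene with its 95% interval from limma (x axis) for the genotype comparisons (left, circles B and squares S) and for stimulation (right, circles control and squares Ptpn11D61Y), n = 3 arrays per group. Dotted lines mark a 1.5-fold change; all genotype estimates lie above 0, and only the intervals of Mag in both states and of Mog in B leave 0 out.

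Differences between arrays of the same replicate number showed the genotype difference without the gap between replicates, but they keep shifts between single arrays. Same-numbered control and Ptpn11D61Y arrays come from different animals. In B, 7, 9 and 8 of the 9 genes were higher in Ptpn11D61Y in replicates 1, 2 and 3, with median differences of 0.26, 0.44 and 0.48. In S these were 5, 9 and 9 genes, with medians of 0.01, 0.43 and 0.48. Replicate 1 thus gave the smallest median in both states. The bright clusters had median differences of 0.08, 0.07 and -0.22 in B and of -0.25, 0.07 and -0.04 in S. The medians of the 9 genes therefore stand beside unlike backgrounds in the 3 replicates. Mag was higher by 0.51, 0.69 and 0.59 in B and by 0.49, 0.67 and 0.79 in S. Mog was higher by 0.69, 0.67 and 0.58 in B and by 0.12, 0.41 and 0.61 in S. Mobp, Mag, Mog and Cldn11 were higher in all 6 of these differences, 4 of 9 genes against 2.75% of all clusters and 1.78% of the bright ones. Higher in all 3 differences of 1 state were 6 genes in B, where 12.6% of all clusters and 9.78% of the bright ones were, and 5 genes in S, where 14.2% and 6.5% were.

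**Figure D3:**
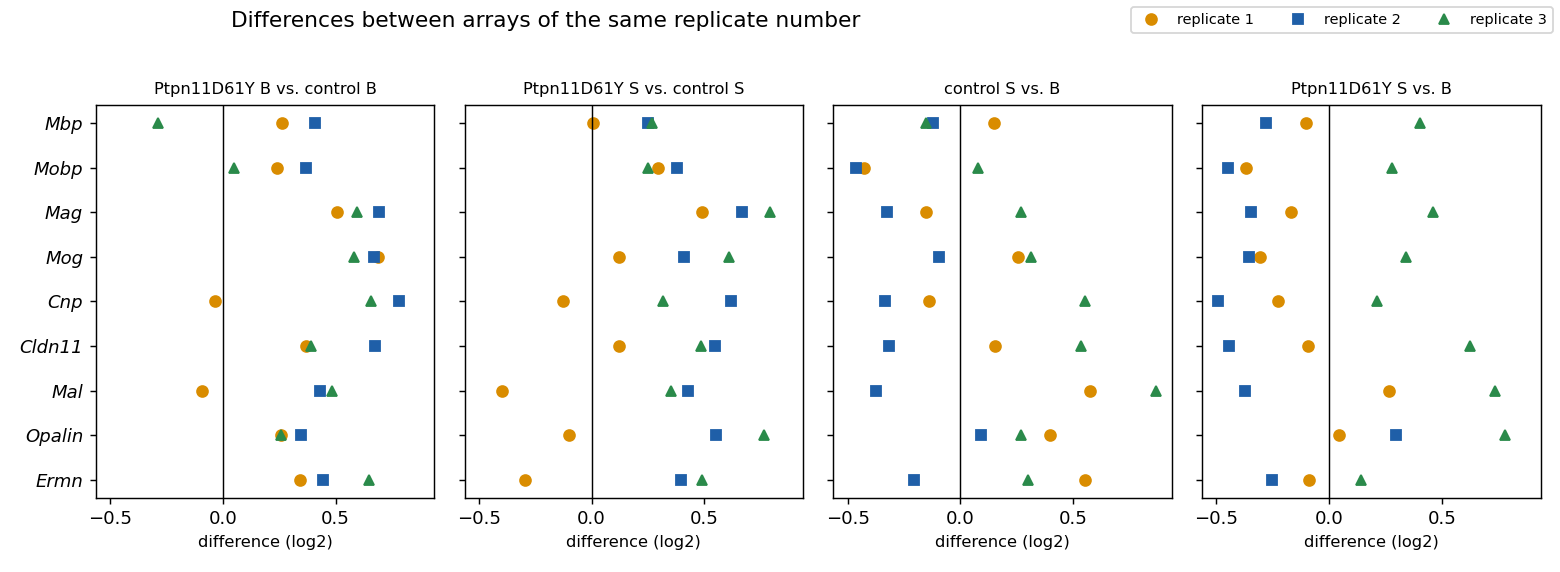
Difference in log2 signal between arrays of the same replicate number (x axis) for each myelin protein gene in 4 comparisons, with circles, squares and triangles for replicates 1, 2 and 3. In the genotype comparisons nearly all points of replicates 2 and 3 lie to the right of 0, and in the stimulation comparisons 1 point of replicate 2 in each genotype, Opalin, lies to the right of 0.

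Stimulation with 4AP and bicuculline moved none of the 9 genes past the filter in either genotype. In control S vs. B, 6 of 9 genes were above 0 (41.3% of all clusters, 73.6% of the bright ones) with a median of 0.12, from -0.27 for Mobp to 0.36 for Mal. The filter was passed by 0.522% of all clusters as higher and by 2.65% as lower. In Ptpn11D61Y S vs. B, 4 of 9 genes were above 0 (46.5% of all clusters, 65.9% of the bright ones) with a median of -0.02, from -0.18 for Mobp to 0.37 for Opalin. Here 0.438% of all clusters passed as higher and 0.706% as lower. For Mag the 95% interval of the response was -0.57 to 0.43 in control and -0.52 to 0.48 in Ptpn11D61Y. The array weights of limma and the fit without Ptpn11D61Y S replicate 1 were alternatives in which 1 gene, Opalin, passed the filter in Ptpn11D61Y S vs. B, at 0.63 and 0.65. In these, 4.48% and 0.788% of all clusters passed as higher.

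The direction of the response varied between replicate numbers. In control the S slices were higher than the B slices of the same number for 6, 1 and 8 of the 9 genes in replicates 1, 2 and 3, and in Ptpn11D61Y for 2, 1 and 9. The median differences were 0.15, -0.32 and 0.30 in control and -0.10, -0.35 and 0.40 in Ptpn11D61Y. The medians of replicate 2 lay below 0 and those of replicate 3 above 0 in both genotypes. Over the bright clusters the median differences were 0.22, 0.07 and 0.07 in control and -0.13, 0.06 and 0.26 in Ptpn11D61Y. Opalin was the 1 gene that was higher after stimulation in all 3 replicates of each genotype, by 0.40, 0.09 and 0.27 in control and by 0.04, 0.29 and 0.78 in Ptpn11D61Y, as were 13% and 11% of all clusters and 30.6% and 16.8% of the bright ones. The difference of the responses had a median of -0.09 over the 9 genes, 4 of them above 0 (56.7% of all clusters, 39.5% of the bright ones), and none passed the filter, which 0.764% of all clusters passed as higher and 0.401% as lower. The comparisons of genotype and of stimulation share arrays, so their values are given side by side only.

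The 9 genes varied together between arrays of a group. After the 4 group means were removed, the correlation of each gene with the mean of the other 8 over the 12 arrays ran from 0.745 for Mbp to 0.991 for Cldn11. These points share the gap between replicate 1 and the others. Replicate 1 arrays lay below those of replicates 2 and 3 by 0.18 for Mag, 0.24 for Mbp, 0.29 for Mobp, 0.31 for Ermn, 0.39 for Opalin, 0.42 for Mog, 0.74 for Cnp and Cldn11 and 1.30 for Mal, beside a median of 0.58 over the bright clusters. With the replicate number removed as well, the correlations ran from 0.570 for Mbp to 0.970 for Cldn11. The 10 clusters most like the mean of the 9 genes over the 12 arrays, group means removed, were Lmo7, Lurap1l, Arl15, Trim2, Aamp, Cdk5r1, Ciao1, Epha6, Prickle2 and Cap2, with r from 0.974 to 0.984. None of them belongs to the lists of oligodendrocyte genes, and the median r over all 15859 candidate clusters was 0.577.

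Most measured genes of the other lists of the oligodendrocyte lineage had a fold change above 0, and few passed the filter. These lists too were chosen with earlier results of these data known, so their counts are a description. Of 35 listed genes of mature oligodendrocytes and myelin, 30 were measured, and 27 of them were above 0 in B and 26 in S, with medians of 0.31 and 0.21. In B, 2 passed the filter as higher: Gsn, an actin-severing protein, by 0.66 ± 0.17, and Aspa, the enzyme that frees acetate for myelin lipids, by 0.77 ± 0.22. In S none passed, and the values with the largest moderated t were 0.58 ± 0.22 for Bcas1 and 0.43 ± 0.22 for Aspa. With replicates 2 and 3 alone, a fit in which 1.59% of all clusters passed as higher and 2.6% as lower in B, and 1.11% and 1.07% in S, neither Gsn nor Aspa passed, while Gjc3, Hapln2, Bcas1, Cd9 and Cryab passed as higher and Klk6 as lower in B, and Gjb1, Tmem88b and Bcas1 as higher in S.

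Genes of myelin lipid synthesis were above 0 for 8 of 10 in B, with a median of 0.38, and for 7 of 10 in S, with a median of 0.27. Aspa, also counted among the mature oligodendrocyte genes, and the fatty acid elongase Elovl7 (0.95 ± 0.39) passed the filter in B. None passed in S, where Ugt8a, the enzyme that makes galactocerebroside, had 0.49 ± 0.21 and Aspa 0.43 ± 0.22. In the fit of replicates 2 and 3 alone Elovl7 and Fa2h passed as higher in B and none in S. Transcription factors of the lineage were above 0 for 10 of 10 in both states, with medians of 0.34 and 0.29, and none passed the filter. Zfp488 had 0.93 ± 0.48 and Olig1 0.43 ± 0.32 in B, and Nkx6-2 had 0.62 ± 0.35 and Zfp488 0.65 ± 0.48 in S. Of genes of newly formed oligodendrocytes, which share Tcf7l2 and Nkx2-2 with the transcription factors, 10 of 11 were above 0 in B and 9 of 11 in S. None of them passed the filter. In that fit Sox10, a transcription factor of the lineage, and Enpp6, of newly formed oligodendrocytes, passed as higher in both states, and Bmp4 in B.

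Oligodendrocyte precursors, the dividing cells from which oligodendrocytes form, gave 9 of 10 markers above 0 in each state, with medians of 0.40 and 0.39. In B, 3 passed the filter as higher: Pdgfra, the growth factor receptor that defines these cells, by 0.75 ± 0.18, the matrix protein Matn4 by 0.70 ± 0.25 and the secreted protein C1ql1 by 0.60 ± 0.24. In S none passed, and Pdgfra had 0.46 ± 0.18 and Gpr17 0.50 ± 0.26. With replicates 2 and 3 alone the medians were 0.19 in B and 0.27 in S, and 1 marker passed in each, Pdgfra in B and Lhfpl3 in S. The summed signal of the precursor list was 1871 to 3092 in control B and 2818 to 3340 in Ptpn11D61Y B, and 1885 to 2928 and 2312 to 3453 in S. Among 10 genes of signals between axon and myelin, 2 were above 0 in B, and the neuregulin receptor Erbb3 was the 1 that passed the filter, higher by 0.73 ± 0.31. Erbb3 passed as higher in both states, and L1cam as lower in B, with replicates 2 and 3 alone.

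**Figure D4:**
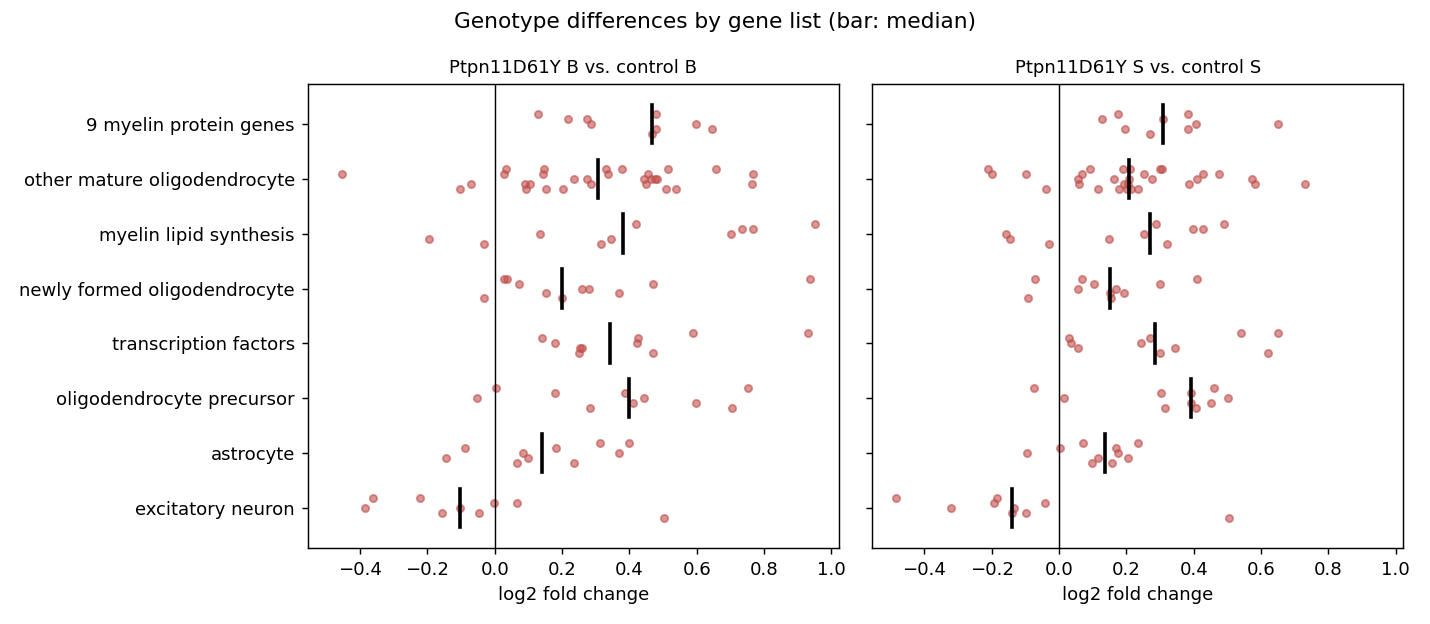
Log2 fold change of each measured gene (points) and median (black bars) of 8 gene lists for Ptpn11D61Y vs. control in B (left) and S (right). Most points of the oligodendrocyte lists lie above 0, and of the 9 excitatory neuron markers 2 lie above 0 in B and 1 in S.

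Markers of other cell types were read the same way. Of the excitatory neuron markers, 2 of 9 were above 0 in B and 1 of 9 in S, with medians of -0.10 and -0.14, and of the astrocyte markers 8 and 9 of 10, with medians of 0.14 and 0.14, and none passed the filter. With replicates 2 and 3 alone the excitatory neuron markers above 0 were 3 in B and 6 in S, and the astrocyte marker Sox9 passed as higher in S. Interneuron markers were above 0 for 5 and 3 of 10 (medians 0.01 and -0.03), microglial markers for 7 and 4 of 9 (0.15 and -0.10) and meningeal markers for 8 and 6 of 10 (0.35 and 0.19), with none past the filter. The meningeal medians lay close to those of the 30 other mature oligodendrocyte genes, 0.31 and 0.21. In the fit without replicate 1, 1 of 10 interneuron markers was above 0 in each state, with Calb2 lower past the filter in B, and 7 and 4 of 10 meningeal markers, with Dcn lower past it in B. Pericyte and smooth muscle markers were above 0 for 10 of 10 in B and 9 of 10 in S (medians 0.24 and 0.28, none past the filter), and endothelial markers for 8 and 9 of 10, with Slco1a4 past the filter in B, but not with replicates 2 and 3 alone. The summed signal of the pericyte list was 1165 to 1549 in control B and 1363 to 1986 in Ptpn11D61Y B, and 1238 to 1486 and 1571 to 1649 in S. Cspg4 is counted in both the pericyte list and the precursor list. Choroid plexus and ependymal markers were above 0 for 6 of 9 in B (median 0.36), with Ttr, a carrier of thyroid hormone, past the filter as higher (3.46 ± 1.29), and for 5 of 9 in S (median 0.03). Ttr and Kl passed in B with replicates 2 and 3 alone. The list was high on 1 array, Ptpn11D61Y B replicate 3, with a summed signal of 12473 against 532 to 813 on the other 11. Without that array Mag and Mog passed the filter in B, and without Ptpn11D61Y B replicate 2 neither did (0.42 and 0.46). In these fits 0.75% and 1.1% of all clusters passed as higher. Of 4 measured Schwann cell genes, which make myelin in nerves outside the brain, 2 were above 0 in each state and none passed the filter. The part of the cell type lists in the difference of the myelin genes was not tested.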

How the data were processed

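RNA of hippocampal slices was hybridised to Mouse Gene 2.0 ST arrays, 1 array per animal and state. Per the methods, the authors used PLIER to summarise probes after background correction and quantile normalization (named in the submitters' processing notes without a version), and the deposited intensity values are on a linear scale, although the methods speak of log2 and log2 had been assumed in the design. Here log2 was taken with a floor of 1, under which 2.89% of values lay, and array medians still ran from 36.5 to 58.1. No depth of reads applies, and the number of arrays limits the precision.

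Group differences were estimated with limma 3.58.1 in R 4.3.3 fitted to the 12 arrays together with a coefficient for each group, a variance trend and 8 residual degrees of freedom, and with Benjamini-Hochberg adjustment over 41345 clusters. The methods used a one-way ANOVA of 2 groups, which was run as an alternative. The code was tested on simulated data. Symbols came from the platform annotation. All 9 genes are named, and from other lists those past the filter, at most the 4 with the largest moderated t, or the 2 with the largest where none passed. The members and lists were chosen with earlier results of these data known. Sequences are from RefSeq, and motifs were searched with Python.

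Residuals of same-numbered arrays were compared over 25329 clusters with a mean log2 signal of at least 5. They correlated at 0.758, 0.671 and 0.393 for B and S of the Ptpn11D61Y animals and at 0.182, -0.027 and 0.110 for the control animals, which the labels pair. Control arrays of the unlike numbers 2 and 3 reached 0.181 and 0.206, so these values do not show that control slices shared an animal. Ptpn11D61Y arrays of the unlike numbers 2 and 3 reached 0.432 and 0.599, above the 0.393 of replicate 3. For the genotypes, which the labels do not pair, residuals of same-numbered arrays correlated at 0.738, 0.621 and 0.345 in B and 0.257, 0.113 and 0.352 in S. Over all clusters the lowest of the latter was 0.041. Same-numbered B arrays of different animals thus reached values close to those of B and S in Ptpn11D61Y. The Ptpn11D61Y values therefore do not show a shared animal either. Alternatives covered scaling, an offset of 16, a filter on dim clusters, blocks, array weights, the 6 arrays compared and each array left out in turn. Combinations of the replicate block with replicates 2 and 3 alone or with centred arrays, and the removal of the replicate number from correlations, were chosen after seeing the data.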

Additional observations from a re-analysis of the deposited data

How the results depend on the processing

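In Ptpn11D61Y B vs. control B, the 2 myelin protein genes past the filter became 0 with the arrays centred on their median (Mag 0.58, Mog 0.63) and with the methods' test, and 1 with 16 added to the signal (Mog), with array weights (Cnp), on the 6 arrays compared (Mog) and with the replicate block on centred arrays (Mog). In Ptpn11D61Y S vs. control S, the 1 gene became 0 with centred arrays, with or without the replicate block (Mag 0.50), and 2, Mag and Opalin, with array weights and with replicates 2 and 3 alone, with or without the block. In Ptpn11D61Y S vs. B the 0 genes became 1 with array weights. With array weights 2.73%, 2.09% and 4.48% of all clusters passed as higher in these 3 comparisons. In the main fit 0.759% of all clusters passed as higher in B and 1.43% in S. In B the share was 0.73% with centred arrays, 0.547% with the methods' test, 0.372% with the added offset and 0.684% on the 6 arrays. It was 1.17% with the replicate block and 1.22% with the block on centred arrays. In S the share was 1.13% with centred arrays, 1.78% with the block and 1.52% with the block on centred arrays. Replicates 2 and 3 alone gave 1.11% in S, and 1.13% with the block. The replicate block alone changed no call of these genes (2 in B and 1 in S), with log2 fold changes of 0.60 ± 0.17 for Mag and 0.65 ± 0.16 for Mog in B and 0.65 ± 0.17 for Mag in S. Centring shifted the median of all clusters by 0.20 in control S vs. B and by -0.15 in Ptpn11D61Y S vs. control S. The median of the 9 genes stayed above 0 in both genotype comparisons under every alternative run. The cause of these changes was not tested, and no other transcript cluster of any of the 9 symbols could be tried.

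The sign of fold changes that had not passed the filter turned in these cases. With centred arrays, with or without the block, control S vs. B gave 0.16 for Mbp and 0.13 for Mag, Ptpn11D61Y S vs. B 0.047 for Mag, Ptpn11D61Y S vs. control S -0.026 for Mal, and the difference of the responses -0.086 for Mbp, -0.042 for Mobp, -0.080 for Mag and -0.014 for Opalin. Repeated quantile normalization gave -0.067 for Cnp in control S vs. B, -0.099 for Mbp and -0.040 for Cldn11 in Ptpn11D61Y S vs. B, and -0.022 for Mbp in the difference of the responses. Array weights gave -0.071 for Mbp in Ptpn11D61Y B vs. control B, 0.036 for Mag in control S vs. B, 0.064 for Mobp, 0.23 for Mag, 0.14 for Mog, 0.033 for Cnp and 0.042 for Ermn in Ptpn11D61Y S vs. B, and 0.15 for Cldn11 and 0.072 for Mal in the difference. Replicates 2 and 3 alone, with or without the block, gave 0.057 for Mag in Ptpn11D61Y S vs. B.

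With each array left out in turn, the genes past the filter numbered 0 to 3 in both genotype comparisons, 0 to 1 in Ptpn11D61Y S vs. B and 0 in control S vs. B and in the difference. The share of all clusters past the filter differs between these fits, so the counts alone do not set the genes apart from other clusters. The 0 in B came without Ptpn11D61Y B replicate 2 or without control B replicate 3, that in S without Ptpn11D61Y S replicate 3. Fold changes that turned sign ranged, in Ptpn11D61Y B vs. control B, from -0.025 to 0.24 for Mbp and -0.22 to 0.83 for Mal, and in Ptpn11D61Y S vs. control S from -0.20 to 0.66 for Mal. In control S vs. B they ranged from -0.16 to 0.071 for Mbp, -0.20 to 0.063 for Mag, -0.15 to 0.20 for Cnp, -0.083 to 0.38 for Cldn11 and -0.019 to 0.78 for Mal. In Ptpn11D61Y S vs. B they ranged from -0.096 to 0.16 for Mbp, -0.15 to 0.16 for Mag, -0.27 to 0.11 for Mog, -0.51 to 0.20 for Cnp, -0.23 to 0.38 for Cldn11, -0.35 to 0.74 for Mal and -0.24 to 0.12 for Ermn. In the difference of the responses they ranged from -0.064 to 0.20 for Mbp, -0.047 to 0.25 for Mobp, -0.082 to 0.23 for Mag, -0.54 to 0.18 for Cnp, -0.36 to 0.26 for Cldn11, -0.70 to 0.38 for Mal and -0.027 to 0.40 for Opalin.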

Other observations

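The clusters most like the mean of the 9 genes were other ones once the replicate number was removed as well as the group means, a step chosen after seeing the data. They were Arhgef25, Epha6, 1700086L19Rik, Dbpht2, Cap2, Arel1, Atcay, Gtf2a2, Slc44a1 and Sphkap, with r from 0.958 to 0.982 over the 12 arrays, and Epha6 and Cap2 were among the 10 before the removal too. The median r of the excitatory neuron markers with the 9 genes was 0.902 before and 0.693 after, that of the other mature oligodendrocyte genes 0.798 and 0.312, and that of the precursor markers 0.227 and -0.148. Over all candidate clusters it was 0.577 and 0.024.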
